A study of Mus musculus with 16 samples.

Results

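The genes of synaptic vesicles and of neurotransmitter release were followed in whole lumbar spinal cord of SOD1G93A and wild-type mice at 40 and 80 days. Members were chosen by gene name alone, as every probe of the array that is not a control and whose name is that of a synaptotagmin, synapsin, Vamp, syntaxin, syntaxin-binding protein, Snap, Sv2, Rab3 or complexin gene, or is Syp, Nsf, Rims1 or Nsg1. The rule took 137 of 41174 probes, with 66 of 27962 gene names. It used no measured value, but it was set with earlier results of these data known. Of the 137 probes, 103 of 54 genes were bright enough in cord to be tested in at least 1 comparison, 84 were well above background on all 16 arrays, and 20 were not well above background on any array. The 12 genes without a tested probe include Syt6, Syt7, Syt8, Syt14, Syt15, Sv2c, Cplx3, Cplx4, Stx11, Stxbp2 and Stxbp5l.

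The study asked which genes differ in the cord of the mutant mouse before symptoms. Both genotypes were male mice on the B6SJL background, without any treatment, and each group held 4 arrays that the labels call biological replicates. The SOD1G93A mice carry many copies of a mutated human SOD1 gene, a model of inherited amyotrophic lateral sclerosis, and the controls, labelled NonTg and named wild-type here, carry no transgene. No group carries an unmutated human SOD1 transgene, so the mutation and the extra copies cannot be told apart. On every array the cord RNA was labelled with Cy3 and hybridised against the same Cy5-labelled pool of neonatal heart, kidney and liver RNA from both genotypes. Values are log2 ratios of cord over that pool, and a difference of 1 on this scale is a doubling.

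Neurotransmitter release is a membrane fusion. A vesicle SNARE (Vamp) winds together with target SNAREs of the plasma membrane (a syntaxin and Snap25), synaptotagmins sense the calcium that enters with an action potential, complexins hold and prepare the complex, and the ATPase Nsf takes used complexes apart. Synapsins, synaptophysin (Syp) and Sv2 proteins belong to the vesicle itself, Rab3 proteins and Rims1 tether it at the active zone, and many related SNAREs serve membrane traffic in every cell. In the cord these proteins work in the terminals on motor neurons and in all other spinal synapses, and SNARE genes of the general kind are also used by glia.

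The oligonucleotides behind the results that turn on 1 probe are shown first, since several of these genes have more than 1 probe and the probes did not give the same value. Each is the 60-base probe sequence of the array files, written 5′ to 3′, with the position that the files give on the mouse build mm7 (NCBI build 35), on the minus strand in all 4 cases. The first Syt10 probe, at chr15:89865414-89865473, holds a stop codon in each of the 3 forward reading frames, while the other 3 leave at least 1 frame open. The second Syt10 probe lies at chr15:89873735-89873794, 8261 bases away. The Syt1 probe is at chr10:108103986-108104045. The Nsg1 probe covers 5896 bases of genome with its 60 bases, at chr5:37220245-37226140, so it joins separate stretches of the genome.
Syt10 A_51_P318830: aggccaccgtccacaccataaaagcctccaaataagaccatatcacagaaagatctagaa
Syt10 A_52_P77155: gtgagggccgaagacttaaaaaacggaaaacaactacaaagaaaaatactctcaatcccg
Syt1 A_52_P94201: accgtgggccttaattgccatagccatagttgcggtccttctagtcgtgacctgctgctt
Nsg1 A_51_P358755: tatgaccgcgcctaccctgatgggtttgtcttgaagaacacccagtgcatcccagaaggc

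Between 46.1% and 55.3% of the probes were well above background in the cord channel of an array and 57.1% to 70.0% in the reference channel. Slide n held replicate n of all 4 groups, and every group kept the same place on each slide, so that an effect of the place cannot be told apart from the group. Neuron markers were all detected (12 of 12 tested), but Chat, which marks motor neurons, was not well above background on any array, and the motor neuron list rests on 6 other genes. Markers of Schwann cells and of meningeal fibroblasts varied from array to array, with scores from -1.11 to 1.14 and from -1.19 to 1.01 on the log2 scale, and 1 array, SOD1G93A at 40 days replicate 2, had a skeletal muscle score of 2.35. In whole cord, fewer cells of a type and less RNA per cell cannot be told apart.

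Most members were more abundant in cord than in the pool of neonatal organs. Taking the brightest probe of each gene, 45 of 54 genes were higher in cord and 9 were lower, with a median log2 ratio of 1.22, while 53.1% of all 15231 genes tested were higher in cord, with a median of 0.06. Dyes were not exchanged, so the ratio holds any dye effect and is given as a description with no test. A set of 16 neuronal core genes with a tested probe was higher in cord without exception, with a median of 3.39. The 14 of these that are reported by name are listed under the processing steps. Among 17 SNARE and related genes of general membrane traffic, 9 were higher and 8 lower, with a median of 0.01.

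The target SNARE Snap25 had the highest ratio of these genes, at 7.21, or 148-fold, with single arrays from 6.93 to 7.42. Calcium sensor Syt1 followed at 5.24, or 37.9-fold, and complexin Cplx1 at 5.05, or 33.1-fold. The vesicle GTPase Rab3a was at 4.29, Nsf at 4.26, Syn2 at 4.19, Vamp1 at 3.37, Syp at 2.94 and Vamp2 at 2.49. Within the core set the lowest ratios were those of Syn1, at 0.53, and Stx1a, at 0.60, each read from its brightest probe. At the other end of the list, the Vamp8 probe had a ratio of -2.14, Snap23 of -1.22, Rab3d of -1.07 and Vamp5 of -0.88. Vamp8 and Snap23 act in secretion and endosomal fusion outside neurons, and Rab3d is known from gland cells. By role, all 12 synaptotagmin genes were higher in cord, with a median of 2.08, and so were the 6 vesicle membrane genes, with a median of 3.17. The 15 target SNAREs had a median of 0.18 and the 6 vesicle SNAREs one of 1.03. Syt2, a fast calcium sensor of hindbrain and cord synapses, had a ratio of 0.43 on a probe that was well above background in cord on 13 of 16 arrays.

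**Figure D1:**
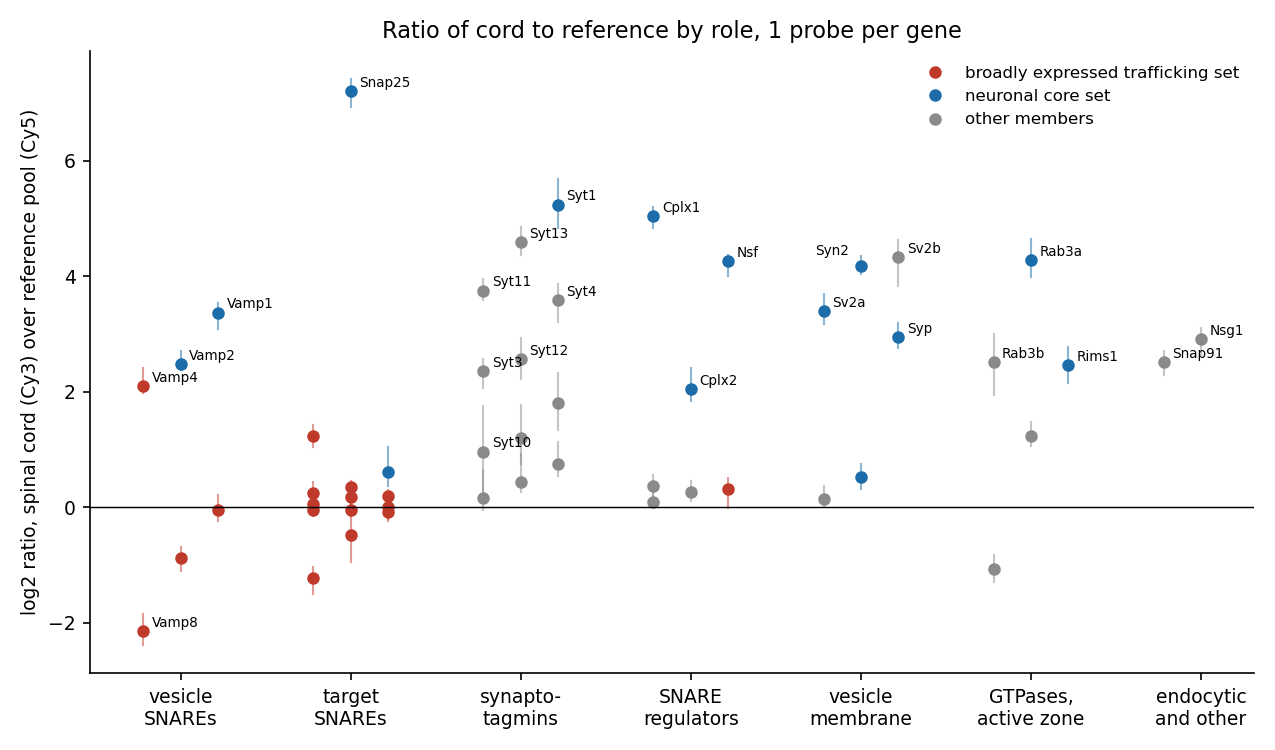
Mean log2 ratio of cord over reference pool (vertical axis) for the brightest probe of the member genes reported, ordered by role along the horizontal axis. Points are means of 16 arrays and lines run from the lowest to the highest array. The neuronal core genes (blue) lie above 0, up to Snap25 at 7.21, and the genes of general membrane traffic (red) lie around 0, down to Vamp8 at -2.14.

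Replicate arrays of a group differed by a median SD of 0.12 over the 103 member probes tested, against 0.11 over all 21953 probes tested. Neuronal core probes varied more, with a median of 0.15, than the general traffic probes, with a median of 0.09. This spread sets the size of difference that 4 arrays against 4 can show. Of the members, the probes with the widest spread were those of Syt4 (A_52_P624302, 0.38), Syt1 (A_52_P94201, 0.33) and Syt10 (A_51_P318830, 0.27).

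At 40 days, 6 of 101 member probes differed between SOD1G93A and wild-type cord at a limma p under 0.05, the threshold of the study's methods, 5 of them higher and 1 lower. The background was 4.47% of 21338 probes, 2.44% higher and 2.03% lower, so the members' share of 5.94% was close to that of the whole array. None passed the Benjamini-Hochberg adjustment, here or anywhere on the array, where the smallest adjusted p was 0.998. With the local backgrounds as scanned, none of the 101 member probes passed, against 1.15% of all probes, and with the processed signals 20 passed, all higher, against 15.6%. Median centring in place of loess gave 1 higher and 3 lower, and the Cy3 channel alone 3 higher and 2 lower. Differences of the members ran from -0.23 to 0.35, with a median of 0.01. By gene, 4 of 53 brightest probes passed, against a background of 3.91%. The arrays of the genotypes lay apart for 1 of 100 member probes, against 2.83% of all probes. Of the 5 probes that were higher, 4 were those of the synaptotagmins Syt4, Syt5, Syt10 and Syt11 and 1 was no synaptotagmin probe, and the one that was lower belonged to the vesicle GTPase Rab3b.

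Syt11, a synaptotagmin that does not bind calcium, read 4.27, 4.22, 4.13 and 4.41 on the 4 wild-type arrays at 40 days and 4.39, 4.50, 4.48 and 4.54 on the SOD1G93A arrays (probe A_51_P125935). One wild-type array lay above the lowest SOD1G93A array. The difference was 0.22 ± 0.07 (SE, limma p = 0.00879, adjusted p = 0.998, exact permutation p = 0.0571, n = 4 against 4), and its call was lost under 2 of the 11 other settings, down to 0.12. A second probe of the gene, A_51_P260730, differed by 0.13 (limma p = 0.0729, exact permutation p = 0.0857), and A_52_P354974, 51967 bases away, by -0.02.

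Syt4, a synaptotagmin of dense-core and other post-Golgi vesicles, read 3.39, 3.21, 3.58 and 3.45 in wild-type and 3.63, 3.57, 3.65 and 3.63 in SOD1G93A cord at 40 days (probe A_52_P628915). The lowest SOD1G93A array fell just under the highest wild-type array. The difference was 0.21 ± 0.07 (SE, limma p = 0.0191, exact permutation p = 0.0571), and its call was lost under 5 of the 11 other settings, at values down to 0.095. The second Syt4 probe, A_52_P624302, with a cord ratio of 4.12 against 3.59 for the first, differed by 0.03. Syt5, a calcium sensor of the vesicle membrane, read 1.01, 1.00, 0.90 and 0.75 in wild-type and 1.77, 1.22, 0.97 and 1.10 in SOD1G93A cord. Here 1 SOD1G93A array lay within the wild-type values and another stood well above the rest. The Syt5 difference of 0.35 ± 0.15 (SE, limma p = 0.0434, exact permutation p = 0.0857) fell to 0.18 without SOD1G93A replicate 1, and its call was lost with 6 of the 8 arrays left out in turn and under 5 of the 11 other settings.

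Rab3b, one of the 4 Rab3 GTPases, read 0.89, 0.95, 0.85 and 0.64 in wild-type and 0.63, 0.43, 0.66 and 0.75 in SOD1G93A cord at 40 days on probe A_52_P339959. The groups overlapped, and the difference was -0.21 ± 0.09 (SE, limma p = 0.0349, exact permutation p = 0.0857). This call was lost with slide as a block, with 5 of the 8 arrays left out in turn and under 6 other settings, of which the processed signals of the scanner software turned the sign, to 0.26. The brighter Rab3b probe, A_52_P362161, differed by -0.23 (limma p = 0.0887, exact permutation p = 0.257).

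At 80 days, 4 of 103 member probes passed, 2 higher and 2 lower, or 3.88%, against a background of 6.86% of 21603 probes, 3.74% higher and 3.12% lower. Again no probe passed the adjustment, and the smallest adjusted p of a member was 0.654. Differences ran from -0.73 to 0.29 with a median of -0.02. By gene, 3 of 54 brightest probes passed, against 6.41%. The split was 3 higher and 1 lower with median centring and 4 higher and 6 lower with the Cy3 channel alone, without the share of all probes beside it. Syt10 and Syt1 were lower in SOD1G93A cord, and Stx6 and Nsg1 were higher.

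Syt10, a calcium sensor known from regulated release of growth factor in olfactory neurons, showed the largest genotype difference among the members. Its probe A_51_P318830 read 1.32, 1.58, 0.93 and 1.76 in wild-type cord at 80 days and 0.82, 1.00, 0.54 and 0.29 in SOD1G93A cord. One SOD1G93A array, at 1.00, lay above the lowest wild-type array, at 0.93, and the other 3 lay below all of wild-type. The difference was -0.73 ± 0.19 (SE, limma p = 0.00303, adjusted p = 0.654, exact permutation p = 0.0571). Within slides 1 to 4 it was -0.50, -0.58, -0.39 and -1.47, lower in SOD1G93A on all 4. It passed the threshold under each of the 11 other settings tried, from -0.77 to -0.59, and with each array left out, from -0.89 to -0.61.

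The same Syt10 probe went the other way at 40 days. Wild-type arrays read 0.62, 0.82, 0.77 and 0.88 and SOD1G93A arrays 1.17, 1.27, 0.92 and 0.77, so 3 of 4 SOD1G93A arrays were above all of wild-type. The difference was 0.26 ± 0.11 (SE, limma p = 0.0368, exact permutation p = 0.143), and it was not called under 6 of the 11 other settings, slide as a block among them, at values down to 0.17, or with 5 of the 8 arrays left out in turn, at 0.18 to 0.28. Between the ages the genotype difference changed by -0.99 ± 0.24 (SE, limma p = 0.000706, adjusted p = 0.543, exact permutation of genotype within age p = 0.00531).

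The second Syt10 probe, A_52_P77155, did not follow the first. It read 0.90, 0.30, 0.38 and 0.53 in wild-type and 0.71, 0.34, 0.42 and 0.56 in SOD1G93A cord at 80 days, with the groups on top of each other. Its difference was -0.02 (95% interval -0.31 to 0.27, exact permutation p = 0.914), and its change between ages -0.11. Both probes are annotated to the same transcript in the array files. The second was dimmer, well above background in cord on 13 of 16 arrays and in the reference on none, and over the 16 arrays its values correlated with those of the first by r = 0.03, given as a description.

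Syt1, the main calcium sensor of fast release, read 5.55, 5.35, 5.22 and 5.70 in wild-type cord at 80 days and 5.49, 5.14, 4.84 and 5.02 in SOD1G93A cord on its brightest probe, A_52_P103929. The SOD1G93A array of slide 1 lay within the wild-type values and the other 3 lay below them. The difference was -0.33 ± 0.14 (SE, limma p = 0.0411, adjusted p = 0.72, exact permutation p = 0.114) and lay below 0 within each slide, from -0.68 to -0.07. The call was lost without subtraction of background, with median centring and with the processed signals of the scanner software, and with 5 of the 8 arrays left out in turn, at differences from -0.34 to -0.20. The other 4 tested Syt1 probes differed by -0.46 (A_52_P94201, limma p = 0.0597, exact permutation p = 0.171), -0.08, -0.07 and 0.09 at 80 days. Of these, A_51_P297900 shares 11 bases of genome with A_52_P103929, at correlation 0.49 over the 16 arrays.

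Nsg1, an endosomal protein of neurons that recycles receptors, was higher in SOD1G93A cord at 80 days on probe A_51_P358755. Wild-type arrays read 2.07, 1.59, 1.99 and 1.93 and SOD1G93A arrays 2.21, 2.27, 2.22 and 2.04. A single SOD1G93A array, at 2.04, fell below the highest wild-type array. The difference was 0.29 ± 0.10 (SE, limma p = 0.0182, exact permutation p = 0.0571), and above 0 within each slide, from 0.11 to 0.68. Without SOD1G93A replicate 2 it was 0.26, and with the processed signals 0.23, both just short of the threshold, and without wild-type replicate 2 it was 0.19 and still passed. Its second probe, A_52_P467726, 1035 bases away, had the same sign at 0.14 (95% interval -0.05 to 0.33, exact permutation p = 0.143), and the 2 probes correlated by 0.84 over the 16 arrays, the closest of 73 pairs of tested probes of 1 gene. The median of these pairs was 0.37, and the lowest -0.51.

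Stx6, a syntaxin of the trans-Golgi network and endosomes rather than of the synapse, read -0.24, -0.16, -0.02 and -0.14 in wild-type cord at 80 days and 0.06, 0.00, 0.06 and 0.02 in SOD1G93A cord (probe A_52_P214891). These groups did not overlap, which held for 1 of 103 member probes against 4.31% of all probes. The difference was 0.18 ± 0.06 (SE, limma p = 0.0176, exact permutation p = 0.0286, the smallest that 4 arrays against 4 allow). The second Stx6 probe, 25249 bases away, differed by 0.07 (95% interval -0.06 to 0.20), and the call was lost without wild-type replicate 1 and when the Cy3 channel was used alone or in the deposited processed values.

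**Figure D2:**
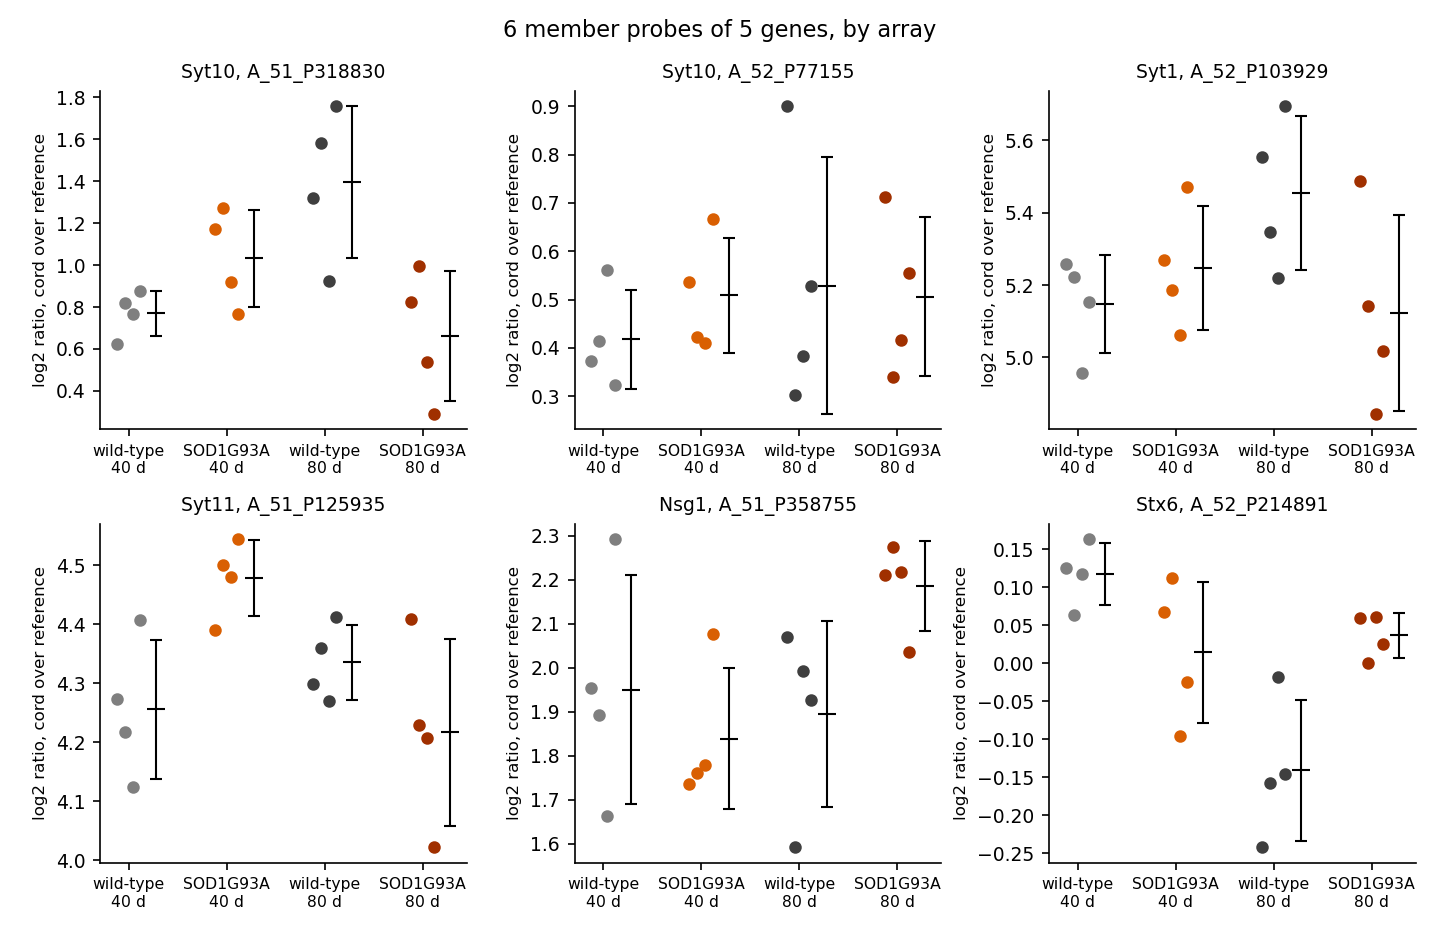
Log2 ratio of cord over reference (vertical axes, which do not start at 0) on each array for 6 probes of 5 genes in the 4 groups. Points are arrays in the order of replicates 1 to 4, and the bar beside them is the mean with its SD. Syt10 probe A_51_P318830 falls from a wild-type mean of 1.40 to 0.66 in SOD1G93A cord at 80 days, while Syt10 probe A_52_P77155 gives overlapping groups.

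Of 14 neuronal core genes reported by name, 0 passed at 40 days on their brightest probe and 1 at 80 days, where 3.91% and 6.41% of all genes passed. Over all 16 core genes with a tested probe, 1 was higher at 40 days and 1 was lower at 80 days. At 40 days the differences of these 14 ran from -0.18 for Rab3a to 0.12 for Nsf, with 10 above 0, and every 95% interval of the 14 lay between -0.39 and 0.39. At 80 days they ran from -0.33 for Syt1 to 0.07 for Syp, with 4 above 0, and 13 of the 14 intervals lay within 0.5 of 0 on the log2 scale. The exception was Syt1, whose interval reached -0.65. Snap25 read 6.98, 7.19, 7.16 and 7.42 in wild-type and 7.28, 7.20, 6.96 and 7.10 in SOD1G93A cord at 80 days, and its difference of -0.05 had an interval from -0.28 to 0.17. Vamp2 differed by -0.07 (95% interval -0.24 to 0.10), Syp by 0.07 (-0.12 to 0.27), Nsf by -0.03 (-0.16 to 0.10) and Syn1 by -0.05 (-0.25 to 0.16). Differences smaller than these intervals were not detectable with 4 arrays a group.

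**Figure D3:**
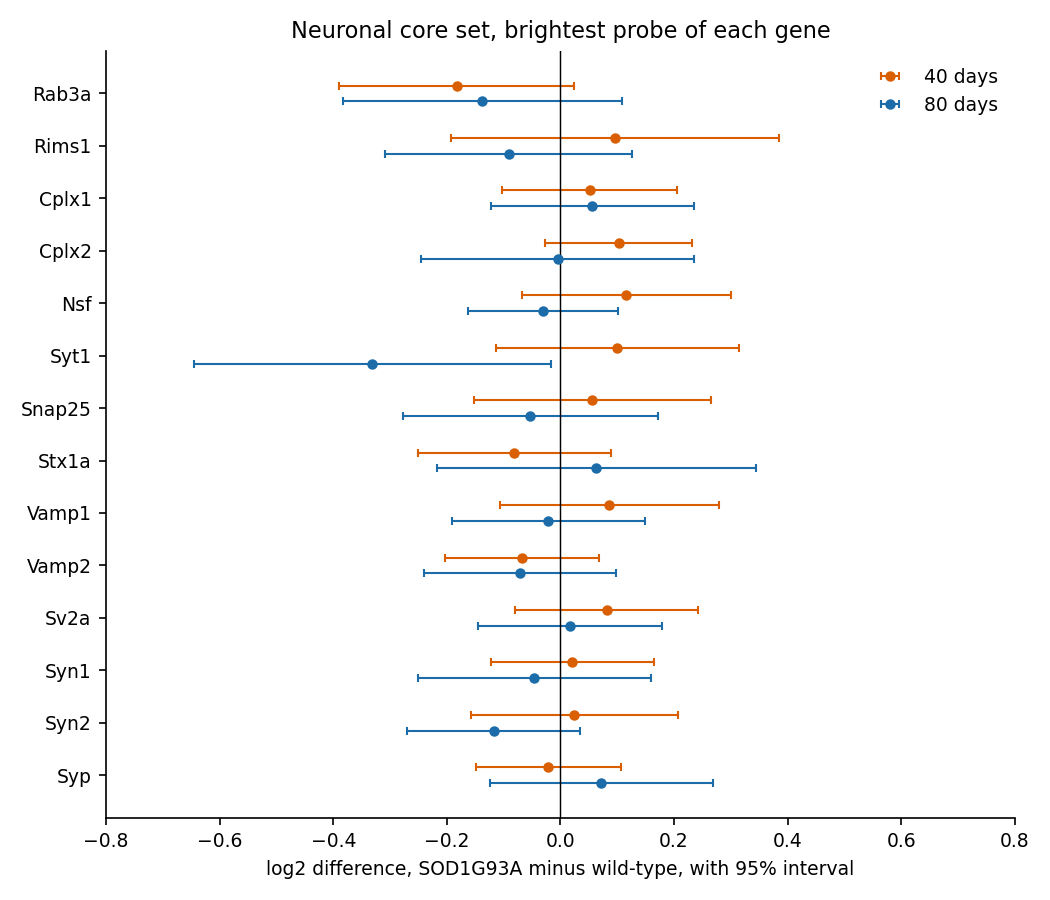
Log2 difference, SOD1G93A minus wild-type (horizontal axis), for the brightest probe of each of 14 neuronal core genes at 40 days (orange) and 80 days (blue), with its 95% interval from limma. Syt1 at 80 days is the one interval that leaves out 0.

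The genotype difference changed between 40 and 80 days for 10 of 103 member probes, or 9.71%, against a background of 6.68% of 21953 probes. Of the 10 probes, 7 changed towards lower values in SOD1G93A cord at 80 days (6.8%, against 3.57% of all probes) and 3 towards higher ones (2.91%, against 3.11%). By gene, 6 of 54 brightest probes passed, against 5.84%. With median centring 3 were higher and 4 lower, and with the processed signals 0 higher and 12 lower. The share of all probes that passed under these settings is not given here. No probe of the array passed the adjustment, with a smallest adjusted p of 0.496. Among the 7 were 6 synaptotagmin probes, of Syt1 (both A_52_P103929 and A_52_P94201), Syt4, Syt5, Syt10 and Syt11, and the seventh was a Rims1 probe.

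Of 23 synaptotagmin probes tested at both ages, 14 lay above 0 at 40 days and below 0 at 80 days, 5 the reverse, 2 above 0 at both and 2 below 0 at both. Over all 20988 probes tested at both ages, 26.0% lay above and then below, and 24.5% the reverse. Probes of 1 gene share a transcript, so these 23 are not independent of each other. The Syt1 probe A_52_P94201 read 2.60, 2.48, 2.81 and 2.45 in wild-type and 3.25, 2.77, 2.51 and 3.08 in SOD1G93A cord at 40 days. At 80 days it read 2.89, 3.30, 2.56 and 3.13 in wild-type and 3.08, 2.28, 2.05 and 2.64 in SOD1G93A cord. Its arrays overlapped at each age, and the difference moved from 0.32 to -0.46, a change of -0.78 ± 0.29 (SE, limma p = 0.0158, exact permutation p = 0.0331). Syt11 probe A_51_P125935 moved from 0.22 to -0.12, a change of -0.34 ± 0.11 (SE, limma p = 0.00611, exact permutation p = 0.00898). Other probes of these genes were not called and did not all move the same way. For Syt11, A_51_P260730 moved from 0.13 to -0.01, but A_51_P374026 from -0.06 to 0.12 and A_52_P354974 from -0.02 to 0.11. For Syt1, A_51_P297900 moved from 0.27 to -0.08 and A_51_P298873 from 0.01 to -0.07, but A_52_P679799 from -0.02 to 0.09. Syt4 changed by -0.35, Syt5 by -0.50 and Syt1 probe A_52_P103929 by -0.43, with exact permutation p = 0.0188, p = 0.0522 and p = 0.0576. Under the 10 other settings the call of the change was lost under 6 for Syt4, 3 for Syt5, 5 for Syt1 probe A_52_P103929, 3 for A_52_P94201 and 4 for Syt11. With each of the 16 arrays left out in turn it was lost with 8 for Syt5 and 6 for Syt1 probe A_52_P103929, and with none for the others of these.

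Astrocyte and neuron markers, by their medians, differed in the same directions, but the other cell type lists did not. Of 8 astrocyte markers, 4 were higher in SOD1G93A cord at 40 days, 1 was lower at 80 days, and 4 changed towards lower values between ages, where 3.91%, 6.41% and 5.84% of all genes passed in either direction. Their score, the median over the list of the log2 deviation from the mean of all arrays, ran from -0.12 to -0.04 in wild-type and from 0.01 to 0.21 in SOD1G93A cord at 40 days, and from -0.09 to 0.12 and from -0.19 to 0.02 at 80 days. Of 12 neuron markers, 1 was higher at 40 days, 1 lower at 80 days and 1 changed towards lower values, with scores from -0.17 to 0.05 in wild-type and from -0.01 to 0.10 in SOD1G93A cord at 40 days, and from -0.03 to 0.14 and from -0.10 to 0.05 at 80 days. Median differences at 40 and 80 days were 0.19 and -0.07 for the astrocyte markers and 0.07 and -0.03 for the neuron markers. Those of the 14 neuronal core genes reported by name were 0.05 and -0.04. The motor neuron list went the other way, with medians of -0.10 and 0.01, and oligodendrocyte markers lay above 0 at both ages, at 0.13 and 0.06. The part of any cell type in the synaptotagmin values was not tested. With the local backgrounds as scanned 2 member probes passed for the change between ages, and without subtraction of background 6.

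Rims1, a scaffold of the active zone, changed by -0.32 ± 0.14 (SE, limma p = 0.0341, exact permutation p = 0.02) on its dimmer probe, A_51_P366770. Wild-type replicate 1 at 80 days read 1.25 beside 0.68, 0.80 and 0.80, and without that array the change was -0.19. The call of this Rims1 probe was lost with 6 of the 16 arrays left out in turn and under 2 of the 9 other settings. The brighter Rims1 probe, 267455 bases away, changed by -0.19 (95% interval -0.55 to 0.18). Towards higher values, Stx6 probe A_52_P214891 changed by 0.28 ± 0.08 (SE, limma p = 0.00333, exact permutation p = 0.00204), a call lost under 3 of the 10 other settings. The second Stx6 probe, A_51_P381584, did not follow, with differences of 0.08 at 40 days and 0.07 at 80 days. Nsg1 probe A_51_P358755 changed by 0.40 ± 0.17 (SE, limma p = 0.0347, exact permutation p = 0.0547), and its call was lost with 8 of the 16 arrays left out in turn. The last was Syt17, at 0.36 (limma p = 0.0169, exact permutation p = 0.0355), on a probe well above background on 8 of 16 arrays whose change was -0.26 with median centring. A probe entered this contrast when any single group was bright enough. A dim probe such as this can thus be picked by the group where it is high, and its change is given as a description.

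**Figure D4:**
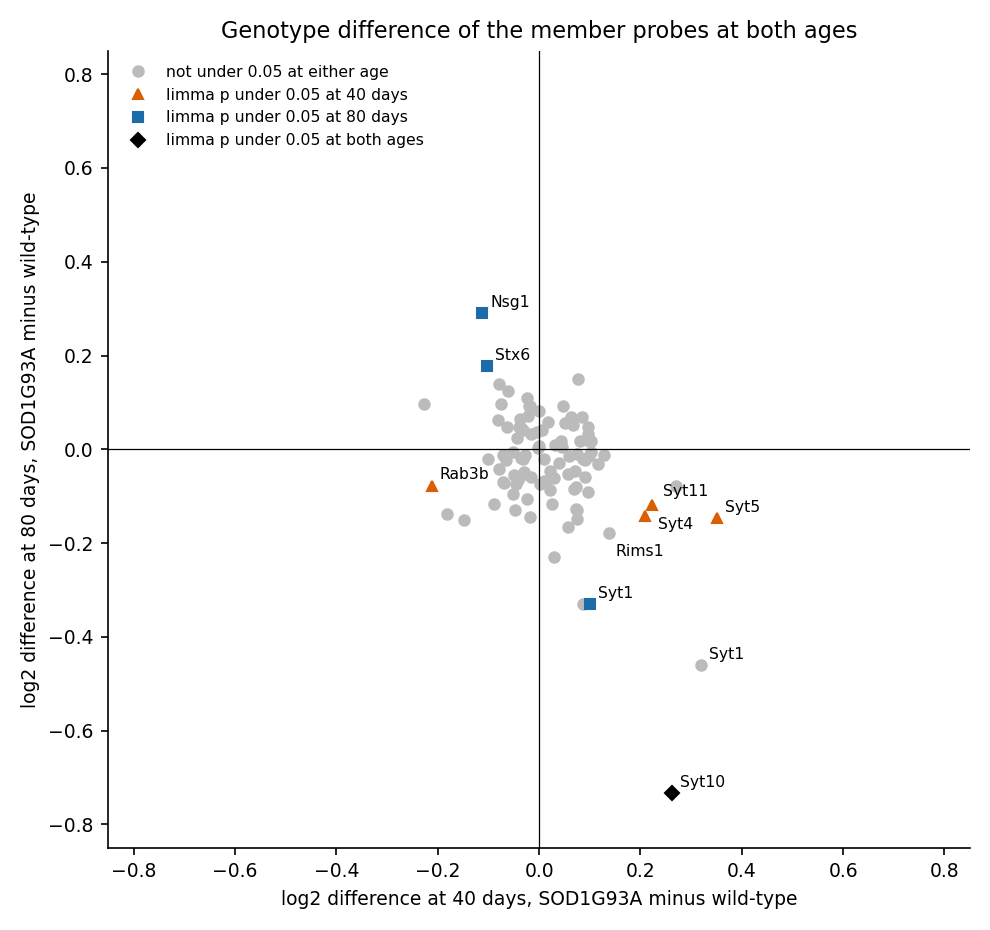
Log2 difference, SOD1G93A minus wild-type, at 40 days (horizontal axis) and at 80 days (vertical axis) for the member probes reported and tested at both ages, with symbols for the age at which limma gave a p under 0.05. Named are the probes that passed at either age or whose difference changed between ages. Syt10 lies lowest, at 0.26 and -0.73, and the labelled synaptotagmins lie to the lower right.

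Differences with age were more frequent over the whole array, and the members followed. In wild-type cord, 16 of 102 member probes differed between 40 and 80 days, 8 higher and 8 lower at 80 days, or 15.7%, against a background of 15.3% of 21526 probes (6.88% higher, 8.4% lower). By gene, 11 of 53 brightest probes passed, against 15.6%. The probes that were higher included those of Syt1, Syt4, Syt5, Syt10, Rims1, Cplx2 and Nsf, 5 of them synaptotagmin probes. The probes that were lower were 5 of target SNAREs (Snap23, Snap29 and Stx6), 2 of the vesicle SNARE Vamp3 and 1 of the vesicle protein Sv2a. Of these, 7 belong to the general traffic set, in which none was higher. The split was 4 higher and 9 lower with median centring, 8 higher and 4 lower with the Cy3 channel alone, and 10 higher and 6 lower with the processed signals. For these settings the share of all probes is not given. After adjustment 1 member probe passed, Stx6, against 1.63% of all probes. Stx6 read 0.13, 0.06, 0.12 and 0.16 at 40 days and -0.24, -0.16, -0.02 and -0.14 at 80 days, with no overlap, and fell by 0.26 ± 0.06 on the log2 scale (SE, adjusted p = 0.0344 by limma). The second Stx6 probe, A_51_P381584, correlated with this one by -0.19 over the 16 arrays.

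In SOD1G93A cord, 14 of 101 member probes differed with age, 6 higher and 8 lower at 80 days, or 13.9%, against a background of 17.2% of 21507 probes (8.77% higher, 8.43% lower). By gene, 9 of 54 brightest probes passed, against 17.7%. With the processed signals 2 were higher and 19 lower, given without the share of all probes that passed under that setting. One passed the adjustment, against 1.18% of all probes, a probe of Vamp3, a vesicle SNARE of endosomal recycling in most cells. Vamp3, Snap23 and Snap29 are named here after their values were seen. Vamp3 (A_52_P31490) read 0.14, 0.14, 0.14 and 0.21 at 40 days and -0.18, -0.23, -0.14 and -0.16 at 80 days in SOD1G93A cord. There the ages were far apart, and the probe fell by 0.33 ± 0.06 on the log2 scale (SE, adjusted p = 0.0134 by limma). In wild-type cord it read 0.18, -0.15, 0.08 and 0.13 and then -0.19, -0.12, -0.23 and -0.24, a fall with 1 array overlapping and of 0.25 on the log2 scale (adjusted p = 0.0528 by limma). The second Vamp3 probe, A_51_P252212, was called lower in wild-type but was not called in SOD1G93A cord. It correlated with the first by 0.72 over the 16 arrays.

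Over the 100 probes tested for age in both genotypes, 4 were lower at 80 days in both, none was higher in both, and 1, Syt10, was higher in wild-type and lower in SOD1G93A cord. Beside Vamp3, those lower in both were Snap29, a SNARE of general membrane fusion, with differences of -0.36 and -0.40, Snap23 with -0.16 and -0.23, and Sv2a with -0.20 and -0.26, wild-type first. Of all probes, 15.3% differed with age in wild-type and 17.2% in SOD1G93A cord. The share of all probes that passed in both was not counted, so these counts are a description. Syt10 rose by 0.63 on the log2 scale from 40 to 80 days in wild-type cord (adjusted p = 0.0757 by limma, exact permutation p = 0.0286) and fell by 0.37 in SOD1G93A cord (exact permutation p = 0.143). Nsg1 was higher at 80 days in SOD1G93A cord on both probes, by 0.35 and 0.21 (exact permutation p = 0.0571 and p = 0.114), and differed by -0.06 and -0.01 in wild-type cord. The call of the second probe, A_52_P467726, was lost with 5 of the 8 arrays left out in turn. Syt11 gave opposite results on different probes in SOD1G93A cord, with -0.26 on A_51_P125935 and 0.31 on A_52_P354974, both past the threshold, which lie 51967 bases apart and correlated by -0.05 over the 16 arrays. Of 8 oligodendrocyte markers, 4 were lower at 80 days in each genotype, where 15.6% of all genes in wild-type and 17.7% in SOD1G93A cord passed in either direction, and their part in the members' differences with age was not tested.

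**Figure D5:**
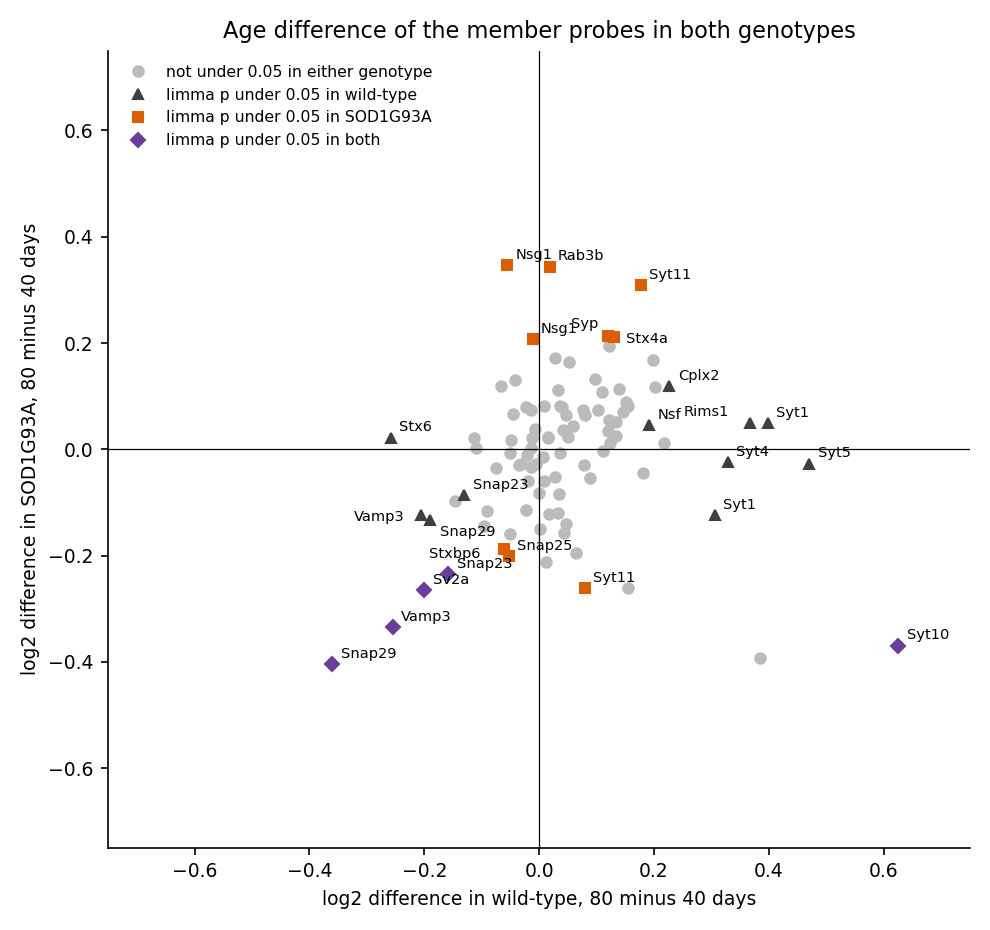
Log2 difference, 80 minus 40 days, in wild-type (horizontal axis) and in SOD1G93A cord (vertical axis) for the member probes reported and tested in both, with symbols for the genotype in which limma gave a p under 0.05. Vamp3, Snap29, Snap23 and Sv2a lie at the lower left, and Syt10 lies alone at the right, at 0.63 and -0.37.

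The agreement of probes within a gene differed between comparisons. At 40 days, 4 of the 6 probes that passed came from genes with another tested probe, and for none of these did another probe pass in the same direction. At 80 days this was 4 of 4, again with none. For the change between ages it was 8 of 10, with another probe passing the same way for 2. For age it was 15 of 16 in wild-type cord, with another passing for 8, and 12 of 14 in SOD1G93A cord, with another passing for 2. More of the whole array passed for age in wild-type cord (15.3%) than at 40 days (4.47%) or 80 days (6.86%). The agreement of probes over all genes was not counted. Some of the others are probes of unlike brightness or far apart on the gene, as with Syt10 and Rims1.

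The 64 release and vesicle cycle genes outside the naming rule, among them Unc13a, Bsn, Pclo, Cadps, Dnajc5, Dnm1 and the synaptogyrins, gave few calls too. Of 54 tested, 2 were higher and 0 lower at 40 days, against 3.91% of all genes, and 0 passed in either direction at 80 days, against 6.41%. Between ages 3 changed towards lower values and 0 towards higher ones, against 5.84%. In the age comparisons, 5 were higher and 6 lower in wild-type cord, against 15.6%, and 3 higher and 3 lower in SOD1G93A cord, against 17.7%.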

How the data were processed

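Lumbar cord RNA of 16 mice, 4 per group, was measured on 2-colour Agilent arrays of 45018 spots, 43379 of them not controls. The authors scanned the arrays and, per the file headers, extracted signals with Agilent Feature Extraction 9.5.3.1. The deposited spot intensities (median signals and backgrounds, Cy3 and Cy5) were used here, and the deposited log2 matrix, normalized within each age, served as an alternative. Backgrounds more than 20 units above their spot were set to the array median, then limma 3.58.1 (R 4.3.3) gave normexp (offset 50), loess and Aquantile values as log2(Cy3/Cy5), with outlier spots left out and spots of a probe averaged. A probe was tested if well above background in Cy3 on at least 3 of 4 arrays of a group compared. Genotype was fitted over the 8 arrays of each age, age and interaction over 16, two-sided, at p under 0.05 as in the study's methods, with Benjamini-Hochberg adjustment over all probes tested. Exact permutation used 70 splits, or 4900 within ages (smallest p 0.000408). P-values weigh a difference against the spread between arrays. Scripts were tested on simulated data, and figures drawn with matplotlib 3.10.9.

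The members and lists were chosen with earlier results of these data known. Named with full values, apart from members not reported here by name that still enter the counts, are member probes called in a genotype comparison or apart by at least 0.2, all probes of Syt10 and Nsg1, and the brightest probe of each core gene reported here (Syt1, Snap25, Vamp1, Vamp2, Stx1a, Nsf, Syp, Syn1, Syn2, Sv2a, Rab3a, Cplx1, Cplx2, Rims1) and of Syt2. Other members named for their ratio or age difference, such as Vamp3, Vamp5, Vamp8, Rab3d, Snap23 and Snap29, were chosen after their values were seen. The general traffic set holds the other Vamp and syntaxin genes with Snap23, Snap29, Stxbp2 and Stxbp3a. Gene names are those of the files, and of 108 probes matched to RefSeq by accession 2 names differ today, among them Stxbp3a (Stxbp3). Alternatives were other background, normalization, filter, weight and block settings, and each array left out in turn.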

Additional observations from a re-analysis of the deposited data

Results flagged for a closer look

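Of 108 groups of 4 arrays over 27 named probes, 4 held 1 array far from the other 3, where chance alone flags about 1 group in 20. The ratio of the gap to the whole range was 0.866 for Rab3a in wild-type cord at 40 days (replicate 4 at 4.64, the others 4.25 to 4.30). For Nsg1 probe A_51_P358755 in SOD1G93A cord at 40 days it was 0.877 (replicate 4 at 2.08, the others 1.74 to 1.78). Syt2 in wild-type cord at 40 days gave 0.903 (replicate 1 at 0.93, the others 0.30 to 0.36). Vamp2 in SOD1G93A cord at 80 days gave 0.992, but its range was narrow (replicate 1 at 2.58, the others at 2.46).

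The genotype difference itself changed between 40 and 80 days at an unadjusted interaction p under 0.05 by limma for 10 probes, none after adjustment. The change towards lower values in SOD1G93A cord was -0.99 for Syt10, -0.78 for Syt1 probe A_52_P94201, -0.43 for Syt1 probe A_52_P103929, -0.50 for Syt5, -0.35 for Syt4, -0.34 for Syt11 and -0.32 for Rims1. Towards higher values it was 0.40 for Nsg1, 0.36 for Syt17 and 0.28 for Stx6.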

How the results depend on the processing

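Counts of member probes that passed moved with the setting, and for most settings the share of all probes is not given here. At 40 days 6 passed, but 0 with local backgrounds as scanned, 20 with processed signals, 3 in the deposited matrix, and 3 to 10 with 1 array left out (3 without replicate 2 of either genotype, 10 without wild-type replicate 4). At 80 days 4 passed, but 8 with backgrounds as scanned, 10 with Cy3 alone, 8 in the matrix, 7 without the filter on dim probes, 8 with array weights, 7 with the spread from 16 arrays, and 3 to 8 with 1 array left out (8 without SOD1G93A replicate 1 or wild-type replicate 3). For the change between ages 10 passed, but 2 with backgrounds as scanned, 6 without background subtraction, and 7 to 11 with 1 array left out. For age in wild-type cord 16 passed, 12 to 20 under other settings and 13 to 21 with 1 array left out. For age in SOD1G93A cord 14 passed, but 7 with backgrounds as scanned, 9 with median centring, and 9 to 15 with 1 array left out (9 without SOD1G93A replicate 3 at 40 days). The cause of these moves was not tested. Signs that reversed with either value past the threshold were those of Rab3b at 40 days with processed signals (0.26), Vamp1 at 80 days with Cy3 alone (0.25), the Syt17 change with median centring (-0.26) and Syp with age in SOD1G93A cord with processed signals (-0.029), and some values that passed under neither setting changed sign too.

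Same-numbered arrays, which share a slide, correlated in their deviations by -0.07 to 0.13 between genotypes at 40 days and by -0.002 to 0.20 at 80 days. Between the ages in SOD1G93A cord they correlated by 0.09 to 0.23, against -0.18 to 0.07 for other numbers, and in wild-type cord by -0.04 to 0.02. Not every pair was over 0.1 in any of these comparisons, so the numbers were not taken to pair mice. With the replicate block, 5, 7, 12, 20 and 17 member probes passed at 40 days, at 80 days, for the change, and for age in wild-type and SOD1G93A cord. Of the 38 named calls it ended those of Rab3b and Syt10 at 40 days. Of 367 values of these calls under other settings, 280 kept direction and call, 84 kept direction only and 3 reversed, and of 384 with 1 array left out, 318 kept both and 66 direction only. The share of member probes higher in cord was 85.4% (88 of 103) and 78.6% to 84.5% under other settings. By any tested probe in place of the brightest, 6, 4, 9, 12 and 12 genes passed in the same order, for 4, 3, 6, 11 and 9. Age was not compared in the matrix, which was normalized within each age. The number of arrays limits the precision: the median standard error of a member was 0.08 at 40 days and 0.09 at 80 days.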
